A study of Mus musculus with 24 samples.

Results

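Wee1, Cdc25b, Cdc25a, Ccnd1, Ccnd2, Ccnd3 and Cdk4 are 7 genes of the cell cycle machinery, and their RNA was followed in endothelial cells sorted from mouse brain. They were picked by symbol from the 53465 genes listed. Wee1 was taken as a known target of the circadian clock, and Cdc25b because its 24-h pattern was the strongest in control mice and was not seen in mutants. The choice of Cdc25b therefore used its readings across the day, which are given here as a description and without a test. The mean level of a gene in each genotype was not part of the rule, and it was tested. For Cdc25b that mean comes from the same readings, so its level test is not independent of the choice.

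Entry into mitosis is set by a pair of opposing enzymes. WEE1 is a kinase that adds an inhibitory phosphate to the mitotic kinase CDK1, and the CDC25 phosphatases take such phosphates off. Earlier in the cycle, D-type cyclins bind CDK4 and start the phosphorylation of the retinoblastoma protein, which releases E2F transcription factors. The core clock meets this machinery at Wee1, whose promoter carries E-boxes bound by CLOCK and BMAL1 in liver. Endothelial cells of the adult brain are mostly out of the cell cycle.

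All mice carried Bmal1fl/fl, floxed alleles of the clock gene Bmal1, on the C57BL/6J strain. Controls were Bmal1fl/fl, with Bmal1 intact, and mutants were Bmal1fl/fl; Tie2cre, in which Cre under the Tie2 promoter removes Bmal1 from endothelium. The Tie2 promoter is also active in the blood lineage, so clock loss in mutants need not be limited to vessels. Mice had free access to food under 12 h of light and 12 h of dark, and their age is not given in the sources used here. Of each genotype, 2 mice were taken every 4 h from ZT2 to ZT22, where ZT0 is lights on, and each of the 24 libraries came from CD31-positive cells of a single mouse.

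Values are the deposited reads per gene, already normalized, with totals of 6136404 to 6648311 per library. All 10 endothelial markers were detected in every library. Bmal1, listed as Arntl, was not lower in mutants over its whole length (log2 fold change 0.96, with an adjusted p of 0.639 by edgeR). That count includes exons outside the deleted stretch. Its mean was 195.2 reads in controls and 226.4 in mutants. At ZT10 and ZT14 controls had 1 to 22 reads of Arntl and mutants 120 to 354. At ZT2 controls had 439 and 466 reads and mutants 243 and 259. The 8 libraries of ZT6 and ZT18 stood apart from the other 16. All 7 microglial markers were detected in both sets, but their summed reads ran from 1025 to 1689 in controls and from 1109 to 1326 in mutants at ZT6 and ZT18, against 9168 to 20994 and 9797 to 24762 at the other times. The 6 astrocyte markers summed to 4544 to 7507 reads in these 8 libraries and 10379 to 20672 in the others, and the share of mitochondrial reads was 2.68% to 3.90% against 5.78% to 17.4%. In bulk RNA, fewer cells of a type and less RNA per cell cannot be told apart. For the 7 genes and Cdkn1a, level differences that turn direction or change size by over 1.5 times between these sets are given for each set, and the other cell cycle genes are given over all libraries only. The labels also give an i5 index with 2 values. It was the same in both genotypes at ZT6, ZT14, ZT18 and ZT22 and differed between them at ZT2 and ZT10, so it is partly confounded with genotype and time.

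BMAL1 acts through E-boxes, so the promoters were read for that motif. RefSeq promoters of GRCm38.p6, 300 bases each from 250 before to 50 after the start, matched 4 of the 7 genes and left Wee1, Ccnd1 and Ccnd2 without an entry. The letters searched on both strands were CACGTG (the E-box), CACGTT (an E-box variant) and AGGTCA (the half-site of REV-ERB and ROR receptors). Cdc25b, the gene with the clearest daily course, and Cdk4, the gene with the most E-boxes, are shown 5′ to 3′ on the plus strand, with any match in capitals. The window of Cdc25b is chr2:131186698-131186997 and that of Cdk4 is chr10:127063285-127063584.
Cdc25b: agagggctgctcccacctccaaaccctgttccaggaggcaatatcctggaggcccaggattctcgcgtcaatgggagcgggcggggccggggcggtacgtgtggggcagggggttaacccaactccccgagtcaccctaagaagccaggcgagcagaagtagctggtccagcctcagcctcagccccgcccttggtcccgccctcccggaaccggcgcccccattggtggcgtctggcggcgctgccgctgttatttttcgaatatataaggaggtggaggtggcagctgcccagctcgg
Cdk4: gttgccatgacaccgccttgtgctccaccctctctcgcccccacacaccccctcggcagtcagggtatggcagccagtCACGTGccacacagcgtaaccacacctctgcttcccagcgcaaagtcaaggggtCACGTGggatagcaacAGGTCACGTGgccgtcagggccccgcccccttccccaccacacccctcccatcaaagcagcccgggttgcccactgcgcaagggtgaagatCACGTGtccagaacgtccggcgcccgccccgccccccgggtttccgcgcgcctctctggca

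The Cdc25b window held none of these motifs. The Cdk4 window held 4 E-boxes, the third of which overlaps an AGGTCA half-site. Of 32851 promoters of the same length, 7.15% held an E-box and 8 (0.0244%) held 4 or more. The variant CACGTT was found in 4.68% and AGGTCA in 16.3%. Cdc25a and the upstream one of the Ccnd3 promoters held 1 AGGTCA each. A match of letters is a description and does not show that a factor binds there.

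Cdc25b (ENSMUSG00000027330, chr2:131186949-131198497, plus strand) encodes the phosphatase thought to start mitotic entry. In controls its normalized reads were 94 and 83 (ZT2), 113 and 105 (ZT6), 78 and 67 (ZT10), 18 and 30 (ZT14), 16 and 33 (ZT18), and 53 and 57 (ZT22). In mutants they were 4 and 58 (ZT2), 37 and 14 (ZT6), 8 and 33 (ZT10), 21 and 31 (ZT14), 17 and 11 (ZT18), and 26 and 28 (ZT22). Every control of ZT2 to ZT10 thus lay above every mutant, while at ZT14 and ZT18 the genotypes overlapped.

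From ZT2 to ZT10 the controls had 90 ± 17.3 reads (SD, n = 6), 3.71-fold their 24.2 ± 8.5 reads at ZT14 and ZT18 (SD, n = 4). Mutants had 25.7 ± 20.7 (SD, n = 6) and 20 ± 8.4 reads (SD, n = 4) in the same windows, a ratio of 1.28. A fitted 24-h cosine had a relative amplitude, that is the amplitude over the mean, of 70.6% (SE 5.42) in controls with its peak at ZT4.80. In mutants it was 20.4% (SE 27.3), and it rested on the ZT2 pair, whose 4 and 58 reads differ 14.5-fold. Without the mouse with 4 reads it was 39.7%, and without the mouse with 58 reads it was 11.2%. By the meta2d method Cdc25b was first of all genes in controls, and the next was Sec22c, with a relative amplitude of 38.2% in controls and 36.4% in mutants. These values chose the gene and support nothing further.

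**Figure D1:**
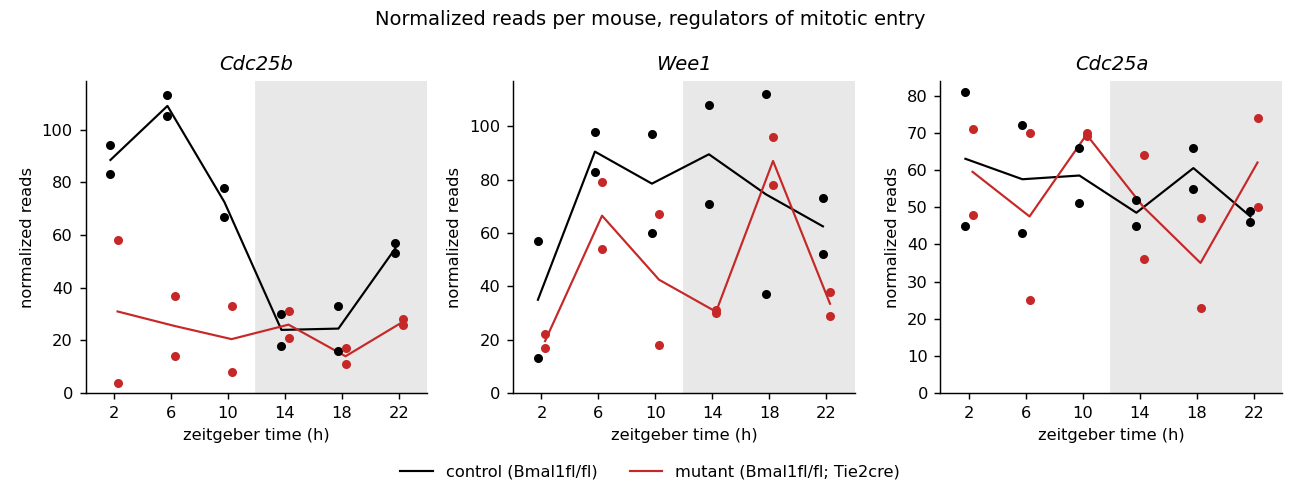
Normalized reads (y axis, from 0) of Cdc25b, Wee1 and Cdc25a by zeitgeber time in hours (x axis); each point is a mouse, lines join the means of 2 mice, black is control, red is mutant, and grey marks the dark phase. Control Cdc25b lies at 67 to 113 reads from ZT2 to ZT10 and at 16 to 33 reads at ZT14 and ZT18, while mutants stay between 4 and 58.

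Over the day Cdc25b had 62.2 ± 33.3 reads in controls and 24.0 ± 14.9 in mutants (SD, n = 12 each). Both controls lay above both mutants at 4 of 6 time points, and 6 of 12 controls lay above the highest mutant. These counts come from the readings that chose the gene. Here and for the genes below, the share of all genes that separate in this way was not counted, so such counts only describe the reads. The log2 fold change of mutant against control was -1.21 (SE 0.34), with an unadjusted p of 0.00131 and an adjusted p of 0.194 in the quasi-likelihood test of edgeR, fitted with time points as a factor, so the difference did not pass adjustment over all genes. For comparison, 42 of 15493 genes tested (0.271%) had an adjusted p under 0.05 and 1077 (6.95%) an unadjusted one. The log2 fold change was -1.45 in the ZT6 and ZT18 libraries alone and -1.10 without them. With the i5 index as a term it was -0.97 (unadjusted p = 0.0283, adjusted p = 0.627, with adjusted values of 0.0524 to 0.763 over all alternatives).

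Some exon sequence of Cdc25b overlaps Spef1 on the opposite strand. Exons of Ccnd1, Ccnd2, Ccnd3, Cdk4, Cdkn1a and Mxd4 also overlap a gene on the opposite strand, among them LTO1 at Ccnd1, Bysl at Ccnd3 and Tspan31 at Cdk4. The libraries kept strand, but the strand setting of the counting is not given in the sources used here. Spef1 had 80.0 reads in controls and 63.9 in mutants on average, and its correlation with Cdc25b over the 24 libraries was 0.49. Within controls that correlation was 0.57, and within mutants it was 0.31. Control Spef1 had its highest mean at ZT6, 99.5 reads, and its lowest at ZT14, 65.5 reads, the same times as Cdc25b, which had 109 and 24.0. The ratio of these means was 1.52 for Spef1 and 4.54 for Cdc25b. In mutants both genes had their highest mean at ZT2, 96.5 reads for Spef1 and 31.0 for Cdc25b. The lowest was at ZT10 for Spef1, 22.0 reads, and at ZT18 for Cdc25b, 14.0 reads. Whether reads of one gene were counted for the other was not tested.

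Wee1 (ENSMUSG00000031016, chr7:110122046-110143286, plus strand) had 13 and 57 normalized reads (ZT2), 98 and 83 (ZT6), 60 and 97 (ZT10), 71 and 108 (ZT14), 112 and 37 (ZT18), and 52 and 73 (ZT22) in controls. In mutants it had 17 and 22 (ZT2), 79 and 54 (ZT6), 67 and 18 (ZT10), 30 and 31 (ZT14), 78 and 96 (ZT18), and 38 and 29 (ZT22) reads. Both controls lay above both mutants at ZT6, ZT14 and ZT22, and the genotypes overlapped at the other 3 times. The means over the day were 71.8 ± 29.8 reads in controls and 46.6 ± 27.2 in mutants (SD, n = 12 each). The log2 fold change was -0.73 (SE 0.28), with an unadjusted p of 0.0134 and an adjusted p of 0.530 (edgeR).

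The genotype difference of Wee1 was also estimated within each set of libraries. It was -0.088 on the log2 scale in the ZT6 and ZT18 libraries alone (unadjusted p = 0.817, edgeR) and -1.06 without them (unadjusted p = 0.00571, adjusted p = 0.554, with adjusted values of 0.276 to 0.999 over all alternatives). The difference between these 2 estimates had an unadjusted p of 0.0888 (edgeR). Over the 24 libraries, log2 reads of Wee1 had a correlation of -0.53 with the summed microglial markers and 0.54 with those of mural cells, the cells that wrap vessels. The 7 mural markers summed to 9177 to 21374 reads in controls and 7805 to 20714 in mutants. The term for markers of other cell types, chosen after seeing the data, was a single pooled sum of their reads on the log2 scale. With that term the log2 fold change of Wee1 was -0.76. It pools mural and microglial markers, whose correlations with Wee1 have opposite signs, so it cannot adjust for each cell type.

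No 24-h course was found for Wee1. By meta2d its p was 0.904 in controls and 1 in mutants, and the relative amplitude was 28.4% (SE 16.2) and 19.8% (SE 25.5). The lowest mean was at ZT2 in both genotypes, 35.0 reads in controls and 19.5 in mutants. The highest was 90.5 reads at ZT6 in controls and 87.0 at ZT18 in mutants, both among the libraries that stood apart. The 2 control mice of ZT2 differed 4.38-fold, the widest gap of any Wee1 pair, against a median of 1.43-fold over the 12 pairs.

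Cdc25a (ENSMUSG00000032477, chr9:109875579-109893895, plus strand), the phosphatase that acts mainly at the start of DNA replication, had 55.9 ± 12.4 reads in controls and 53.9 ± 18.5 in mutants (SD, n = 12 each). Controls ran from 43 to 81 reads (median 51.5) and mutants from 23 to 74 (median 57.0), so the groups overlapped over most of their range. The log2 fold change was -0.075 (SE 0.23, adjusted p = 0.984, edgeR). It was -0.50 in the ZT6 and ZT18 libraries alone and 0.12 without them, and these estimates differed with an unadjusted p of 0.220 (edgeR). Leaving out single mice moved the estimate over all libraries between -0.16, without the mutant of ZT6 with 70 reads, and 0.014, without the mutant of ZT18 with 23 reads. Its relative amplitude was 6.09% (SE 9.78) in controls and 13.0% (SE 14.8) in mutants, with a meta2d p of 1 in each.

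The balance of Cdc25b to Wee1 was taken per mouse as the log2 ratio of reads per kilobase of exon. In controls of ZT2 to ZT10 it ran from -0.66 to 2.73 and was above 0 in 5 of 6 mice. In controls of ZT14 to ZT22 it ran from -2.93 to -0.097 and was above 0 in 0 of 6. Mutants were above 0 in 2 of 6 and 0 of 6 mice in the same windows, with medians of -1.65 and -0.66. As Cdc25b was chosen for its course in controls, this ratio is also a description.

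Ccnd1, the gene for cyclin D1 and a common endpoint of growth factor signalling (ENSMUSG00000070348, chr7:144929931-144939925, minus strand), had in controls 517 and 616 reads (ZT2), 604 and 495 (ZT6), 392 and 450 (ZT10), 327 and 287 (ZT14), 474 and 395 (ZT18), and 580 and 413 (ZT22). Mutants had 516 and 590 (ZT2), 424 and 432 (ZT6), 293 and 409 (ZT10), 301 and 209 (ZT14), 528 and 330 (ZT18), and 393 and 434 (ZT22). In both genotypes the highest mean was at ZT2 and the lowest at ZT14, 566.5 and 307 reads in controls and 553 and 255 in mutants.

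By meta2d, Ccnd1 had an unadjusted p of 0.0107 in controls and 0.0483 in mutants, with q of 1 in each, so neither passed adjustment. Among the 6 genes other than Cdc25b, Ccnd1 was the only one with an unadjusted meta2d p under 0.05, in controls and in mutants. Over all genes 2.43% in controls and 2.27% in mutants were under that mark. With each mouse left out in turn, Ccnd1 was under it in 9 of 12 fits in controls and 2 of 12 in mutants. At q under 0.6, the mark used in the study, were 0.31% of genes in controls and 0.0387% in mutants, and 0 of the 6 in either. The relative amplitude of Ccnd1 was 25.7% (SE 5.75) in controls and 27.4% (SE 8.03) in mutants, with peaks at ZT2.37 and ZT1.37. For a different rhythm in the 2 genotypes, the interaction test of edgeR gave Ccnd1 an unadjusted p of 0.754, and it called 0 genes after adjustment and 660 (4.26%) without it. Of the 6 genes, 0 were called in that test with or without adjustment, and DESeq2 also called 0. Leaving out single mice brought Ccnd3 under an unadjusted p of 0.05 in 2 of 24 edgeR fits, and 0 genes of the 6 passed adjustment.

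A single cosine fitted to both genotypes together, a test chosen after seeing the data, gave Ccnd1 an unadjusted p of 0.000304 and an adjusted p of 0.0575 with its peak at ZT1.74 (edgeR). Over all genes, 78 (0.503%) were called after adjustment and 803 (5.18%) without it. The adjusted p of Ccnd1 was 0.0161 without the ZT6 and ZT18 libraries, 0.0359 with the i5 index and 0.0257 with markers of other cell types as a term, and its range over 5 alternatives was 0.0161 to 0.0570. Over the day Ccnd1 had 462.5 ± 105.7 reads in controls and 404.9 ± 109.2 in mutants (SD, n = 12 each). Its log2 fold change was -0.20 (SE 0.10, unadjusted p = 0.0516, adjusted p = 0.725, edgeR).

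Ccnd2, which encodes cyclin D2 (ENSMUSG00000000184, chr6:127125162-127152193, minus strand), ran from 428 to 990 reads in controls (median 746) and from 509 to 1090 in mutants (median 691). The means were 721.5 ± 152 and 741.4 ± 193 reads (SD, n = 12 each), a log2 fold change of 0.036 (SE 0.10, adjusted p = 0.981, edgeR). That estimate averages values of opposite sign, -0.22 in the ZT6 and ZT18 libraries alone and 0.16 without them, and the difference between these estimates had an unadjusted p of 0.0865 (edgeR). Leaving out single mice moved the estimate over all libraries between -0.026, without the mutant of ZT2 with 1083 reads, and 0.077, without the mutant of ZT6 with 519 reads. The highest mean was at ZT22 in both genotypes, 871 reads in controls and 928 in mutants. The lowest was at ZT14 in controls, 499.5 reads, and at ZT6 in mutants, 586 reads. The meta2d p was 0.757 in controls and 0.303 in mutants. With both genotypes fitted together it was 0.00846 (edgeR, adjusted p = 0.501), with the peak at ZT22.6.

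Ccnd3, which encodes cyclin D3 (ENSMUSG00000034165, chr17:47505051-47599691, plus strand), had the highest log2 fold change of mutant against control among the 7. Controls had 439 and 399 reads (ZT2), 507 and 722 (ZT6), 468 and 460 (ZT10), 319 and 460 (ZT14), 427 and 625 (ZT18), and 385 and 376 (ZT22). Mutants had 409 and 391 (ZT2), 407 and 731 (ZT6), 476 and 474 (ZT10), 767 and 553 (ZT14), 700 and 623 (ZT18), and 489 and 442 (ZT22). Both mutants lay above both controls at ZT10, ZT14 and ZT22, by a few reads at ZT10. The means were 465.6 ± 111.0 and 538.5 ± 134.3 reads (SD, n = 12 each), a log2 fold change of 0.20 (SE 0.11, unadjusted p = 0.0626, adjusted p = 0.754, edgeR). It was 0.13 in the ZT6 and ZT18 libraries alone and 0.23 without them. The fitted peak was at ZT7.19 in controls and ZT14.9 in mutants, but the interaction test gave an unadjusted p of 0.189 (edgeR). In that test it was 0.0155 without the mutant of ZT6 with 731 reads (adjusted p = 0.901). Without the control of ZT18 with 625 reads it was 0.0390 (adjusted p = 0.993). Reads of Ccnd3 had a correlation of 0.60 with the summed endothelial markers and -0.64 with those of astrocytes over the 24 libraries. The 10 endothelial markers summed to 77105 to 120315 reads in controls and 86793 to 122493 in mutants, and the 6 astrocyte markers to 4835 to 18442 and 4544 to 20672. With the pooled sum of markers of other cell types as a term, the log2 fold change of Ccnd3 was 0.17.

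Cdk4, the gene for the kinase partner of the D-type cyclins (ENSMUSG00000006728, chr10:127063534-127067920, plus strand), ran from 68 to 198 reads in controls (median 125.5) and from 40 to 165 in mutants (median 107.5). The means were 126.7 ± 39.0 and 108.6 ± 36.6 reads (SD, n = 12 each), a log2 fold change of -0.22 (SE 0.20, adjusted p = 0.893, edgeR). In the ZT6 and ZT18 libraries alone the log2 fold change was -0.74 (unadjusted p = 0.0265), and without them it was 0.029. The difference between these estimates had an unadjusted p of 0.0656 (edgeR). Without the mutant of ZT6 with 40 reads, the value over all libraries was -0.10. Only at ZT6 did both controls, 155 and 198 reads, lie above both mutants, 40 and 114 reads. The relative amplitude was 18.0% (SE 12.6) in controls and 10.2% (SE 14.8) in mutants. The meta2d p of Cdk4 was 1.00 in controls and 1 in mutants.

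**Figure D2:**
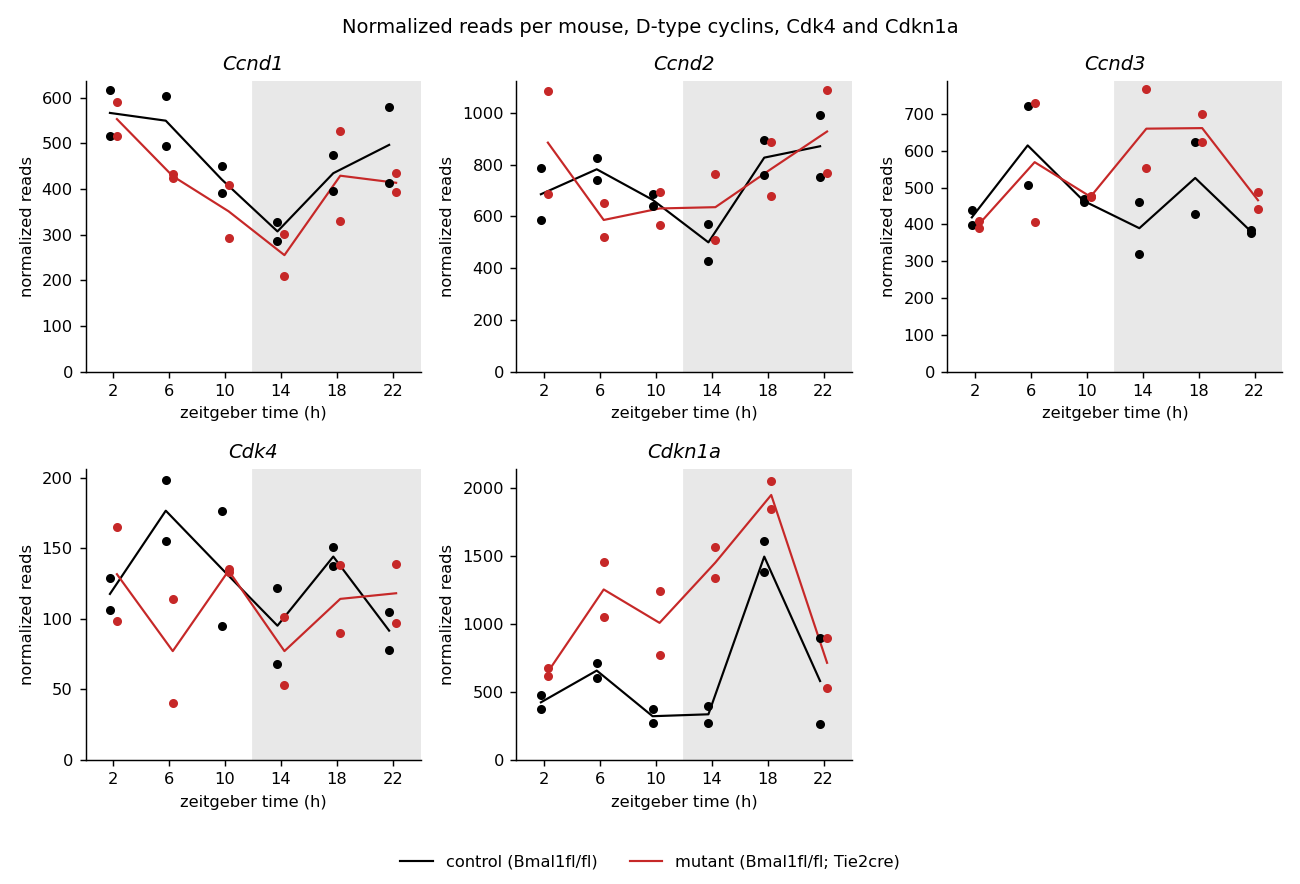
Normalized reads (y axis, from 0) of Ccnd1, Ccnd2, Ccnd3, Cdk4 and the CDK inhibitor gene Cdkn1a by zeitgeber time in hours (x axis); each point is a mouse, lines join the means of 2 mice, black is control, red is mutant, and grey marks the dark phase. Ccnd1 is lowest at ZT14 in both genotypes, and Cdkn1a of both mutants lies above both controls at 5 of 6 times.

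**Figure D3:**
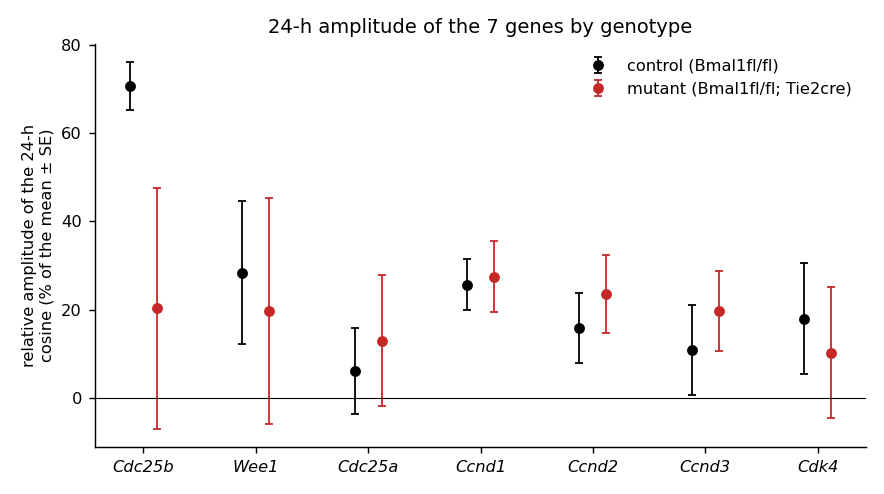
Relative amplitude of a fitted 24-h cosine (y axis, percent of the mean) for the 7 genes (x axis) in controls (black) and mutants (red); bars are ± SE of the fit over 12 mice. Cdc25b stands at 70.6% in controls and 20.4% in mutants, and Ccnd1 at 25.7% and 27.4%.

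Of the 7 genes, 0 had an adjusted p under 0.05 for a difference in level and 2, Cdc25b and Wee1, had an unadjusted p under 0.05 in the edgeR fit, beside 6.95% of all genes. Both were lower in mutants, as were 3.18% of all genes at that mark. The level test of Cdc25b used the readings that chose the gene, so its p is not independent of the choice. DESeq2 called 0 of the 4 genes for which it gave an adjusted p, beside 0.639% of all genes. It gave none for Wee1, Cdc25b and Cdc25a, and its unadjusted p was under 0.05 for 3 of the 7 (Cdc25b 0.000216, Wee1 0.00809 and Ccnd1 0.0492), beside 8.7% of all genes by DESeq2.

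Levels between genes were compared as normalized reads per kilobase of exon sequence. In controls the order was Ccnd1 at 98.2 ± 22.4, Ccnd2 at 76.7 ± 16.2, Ccnd3 at 53.1 ± 12.7, Cdk4 at 39.0 ± 12.0, Wee1 at 20.99 ± 8.73, Cdc25b at 16.7 ± 8.9 and Cdc25a at 6.97 ± 1.54 (SD, n = 12). The D-type cyclins were thus the most abundant of the 7, and Wee1 and the CDC25 phosphatases the least. Wee1 and Cdc25b did not differ beyond their spread, with Wee1 higher in 7 of 12 controls. Each other gene of that order was above the next in 10 or 11 of 12 controls. In mutants Ccnd1 was at 86.0 ± 23.2 and Ccnd2 at 78.8 ± 20.6, and Ccnd1 was higher in 7 of 12 mice. Cdc25b in mutants, at 6.44 ± 4.01, was above Cdc25a, at 6.72 ± 2.30, in 7 of 12 mice and did not differ from it beyond their spread. It lay below Wee1, at 13.6 ± 7.96, in 10 of 12 mice. Exon sequence was taken over all annotated transcripts, so a gene with long exons that are not used here is placed too low.

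**Figure D4:**
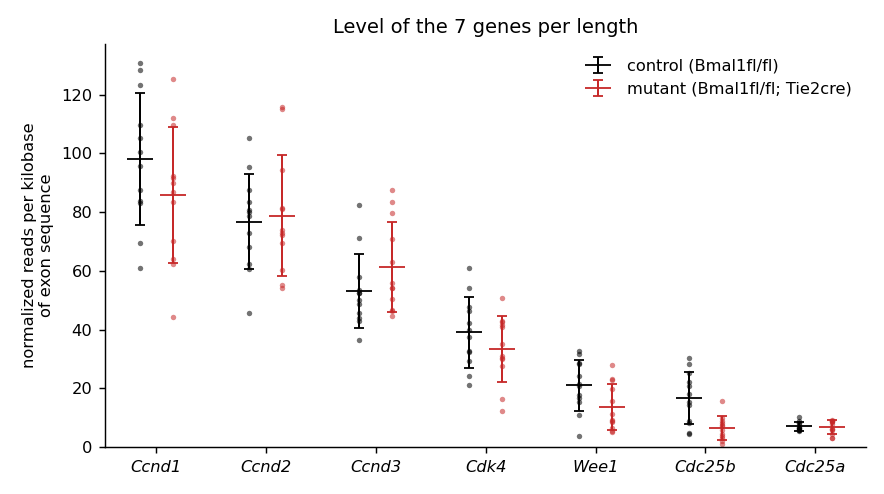
Normalized reads per kilobase of exon sequence (y axis, from 0) of the 7 genes (x axis) in controls (black) and mutants (red); points are mice, and bars are the mean ± SD of 12 mice. Ccnd1 has 98.2 and Cdc25a 6.97 reads per kilobase in controls, and Cdc25b has 16.7 in controls and 6.44 in mutants.

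Among the 21 pairs of the 7 genes, the highest correlation of log2 reads over the 24 libraries was that of Ccnd1 with Ccnd2, 0.55. It was 0.58 in the 16 libraries without ZT6 and ZT18 and 0.38 in the other 8. The highest pair was not the same in each set, with Cdc25a and Cdk4 at 0.64 in the 16 and Ccnd2 and Cdk4 at 0.65 in the 8. Wee1 and Cdc25b had a correlation of 0.066. The libraries share time points, genotypes and cell makeup, so these values describe the samples.

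Compared with 12253 genes of at least 20 reads on average, Cdc25b was most like Gm29358 (0.71), Ncaph (0.70), Cenpb (0.70), Glns-ps1 (0.70) and Fez1 (0.69) over the 24 libraries, as Pearson correlations of log2(reads + 1). Ncaph encodes a subunit of condensin and Cenpb a centromere protein. Glns-ps1 is a pseudogene whose reads can be shared with its parent gene. Of 19 core clock genes, Nr1d2 had the highest correlation with Cdc25b, 0.58, and Cry1 the lowest, -0.72. Within controls and within mutants these were 0.15 and 0.47 for Nr1d2 and -0.64 and -0.46 for Cry1. Both clock genes also differ in mean between the genotypes, with 638.7 and 152.7 reads of Nr1d2 and 275 and 485.8 of Cry1 in controls and mutants. Nr1d2 encodes REV-ERB beta and Cry1 a repressor of CLOCK and BMAL1. As Cdc25b was chosen for its course in these libraries, its correlations are also a description. Wee1 was most like Mia3 (0.77), Hmgn5 (0.73), Rai14 (0.73), Akap2 (0.72) and Ahnak (0.72). Its highest core clock correlation was with Rora, 0.65 (0.77 within controls and 0.44 within mutants), and its lowest with Npas2, -0.58 (-0.68 and -0.30).

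The other genes of the cell cycle were taken as 7 lists of 93 genes, of which 75 passed the filter. In the edgeR fit, 1 of the 75 was higher in mutants and 0 were lower after adjustment, beside 0.155% and 0.116% of all genes. Without adjustment 1 was higher and 4 were lower, a share near the 6.95% of all genes. The median log2 fold change was -0.0078, against 0.0033 over all genes tested. The 18 genes that did not pass included Cdk1, Ccnb1, Plk1, Ccne1, Chek1 and E2f1, and the 16 of them found in the data had at most 32 reads in any mouse.

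**Figure D5:**
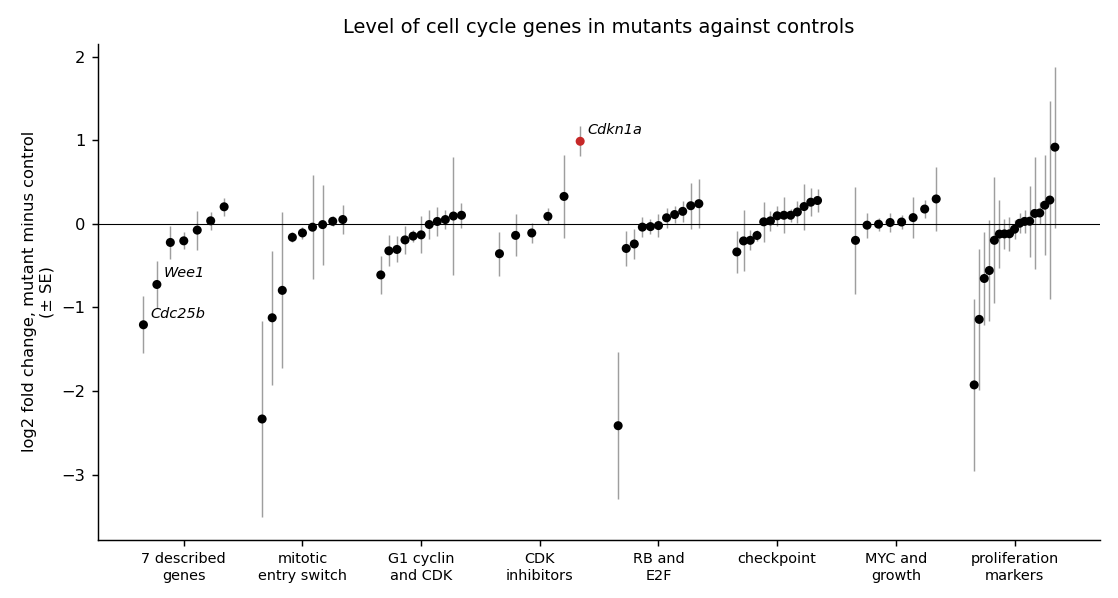
Log2 fold change of mutant against control (y axis, ± SE from edgeR) for the 7 genes described and for the tested genes of 7 other cell cycle lists (x axis), sorted within each list; red marks an adjusted p under 0.05. Cdkn1a, at 0.99, is the single red point, and Cdc25b and Wee1 are at -1.21 and -0.73.

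Cdkn1a encodes p21, an inhibitor of cyclin-dependent kinases that p53 induces (ENSMUSG00000023067, chr17:29090976-29100727, plus strand). Controls had 371 and 473 normalized reads (ZT2), 601 and 710 (ZT6), 373 and 267 (ZT10), 396 and 272 (ZT14), 1377 and 1609 (ZT18), and 897 and 260 (ZT22). Mutants had 614 and 677 (ZT2), 1050 and 1453 (ZT6), 1242 and 770 (ZT10), 1337 and 1562 (ZT14), 1846 and 2046 (ZT18), and 895 and 530 (ZT22). Both mutants lay above both controls at 5 of 6 time points, with overlap at ZT22, which is given as a description without the share over all genes. The level rose from 633.8 ± 447.6 reads in controls to 1168.5 ± 495.7 in mutants (SD, n = 12 each), a log2 fold change of 0.99 (SE 0.18, adjusted p = 0.00447, edgeR).

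Over the 24 libraries, log2 reads of Cdkn1a had a correlation of -0.68 with the summed markers of astrocytes, -0.54 with those of microglia and 0.59 with those of endothelium. All 6 astrocyte markers and all 5 red blood cell markers had log2 fold changes below 0 in mutants, with medians of -0.22 and -0.34. Of these, 0 were under an adjusted p of 0.05, and 2 of the 6 and 3 of the 5 were under an unadjusted one (edgeR), beside 0.271% and 6.95% of all genes. The red blood cell markers summed to 2244 to 9014 reads in controls and 1492 to 7008 in mutants. With the pooled sum of markers of other cell types as a term, the log2 fold change of Cdkn1a was 0.95 (adjusted p = 0.00841, edgeR). A single sum cannot adjust for each cell type.

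Genes that respond to the isolation of cells were read beside Cdkn1a. The list, chosen after seeing the data, was Fos, Fosb, Jun, Junb, Egr1, Atf3, Ier2 and Dusp1, and all 8 were detected. Their summed reads ran from 18469 to 65679 in controls (median 46234) and from 24077 to 71594 in mutants (median 54706.5). All 8 were higher in mutants, by 0.21 to 0.38 on the log2 scale, with 0 under an adjusted p of 0.05 and 5 under an unadjusted one (edgeR), beside 0.271% and 6.95% of all genes. The correlation of their sum with Cdkn1a was 0.67 within controls and 0.24 within mutants. With their level as a term, the log2 fold change of Cdkn1a was 0.81 and its adjusted p was 0.0529. With the i5 index as a term it was 0.90 (adjusted p = 0.146), in the ZT6 and ZT18 libraries alone 0.68 (adjusted p = 0.0750) and without them 1.15 (adjusted p = 0.0469). Over all alternatives the log2 fold change lay between 0.68 and 1.17 and the adjusted p between 1.57e-21 and 0.146. The lowest p came from a filter of 1 read in any library, where the SE was 0.096 against 0.18 in the main fit. With single mice left out the adjusted p ran from 5.93e-05 to 0.0175 (edgeR).

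In the mitotic entry list 9 of 16 genes were tested and 0 passed adjustment in level. Ywhae, a 14-3-3 protein that holds CDC25 phosphatases in the cytoplasm, had the highest level at 1340 reads per kilobase in controls and a log2 fold change of -0.16 (unadjusted p = 0.0127, adjusted p = 0.530, edgeR). Ywhaz, also a 14-3-3 gene, had 771 reads per kilobase and a log2 fold change of 0.031. Ywhab stood at -0.11. Ccnb2, a mitotic cyclin, had 4.83 reads on average in controls and 1.17 in mutants, too few to place.

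In the list of G1 cyclins and their kinases 11 of 13 genes were tested and 0 passed. Cdk5, a kinase known mainly from neurons, had a log2 fold change of -0.61 (unadjusted p = 0.0128, adjusted p = 0.530, edgeR). Cdk6, the close relative of Cdk4, stood at -0.31 with 14.1 reads per kilobase in controls against 39.0 for Cdk4. Cdc37, the chaperone that loads CDK4 onto HSP90, had 149.9 reads per kilobase and a log2 fold change of -0.15. Ccng1, a p53 target, had 90.7 reads per kilobase and a log2 fold change of 0.051.

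In the RB and E2F list 11 of 13 genes were tested and 0 passed. E2f2 had 22.4 reads on average in controls against 7.33 in mutants and a log2 fold change of -2.42 (SE 0.88, unadjusted p = 0.00979, adjusted p = 0.497, edgeR). E2f2 ran from 2 to 85 reads in controls (median 15.5) and from 0 to 37 in mutants (median 4), so its estimate rests on few reads. E2f5 and E2f6 stood at -0.29 and -0.24. The highest levels were those of E2f4, a repressor of quiescent cells, and Rbl2, its p130 partner, at 123.8 and 64.6 reads per kilobase in controls. Their log2 fold changes were -0.039 and 0.11.

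In the checkpoint list 13 of 15 genes were tested and 0 passed. Nono, an RNA-binding protein that also partners PER proteins, had 290.8 reads per kilobase in controls and a log2 fold change of -0.14 (unadjusted p = 0.0470, adjusted p = 0.706, edgeR). Gadd45g had 191.7 reads per kilobase and a log2 fold change of 0.28, and Timeless, a replication fork protein, stood at -0.20. In the proliferation list 17 of 20 were tested and 0 passed. Pcna and Mcm6, of the replication machinery, had 127.4 and 57.4 reads per kilobase in controls and log2 fold changes of 0.13 and 0.0069. Kif11, Tpx2 and Cenpe, of the mitotic spindle, had 8.83, 17.1 and 30.0 reads on average in controls and 3.75, 8.67 and 19.4 in mutants, with unadjusted p of 0.0698, 0.187 and 0.248 (edgeR). Members of the list went both ways, from a log2 fold change of -1.93 (Kif11) to 0.92 (Cenpf), with a median of -0.064.

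All 8 genes of the MYC and growth list were tested, and 0 passed in level. Mxd4 encodes a partner of MAX that opposes MYC. In controls it had 955 and 883 reads (ZT2), 1560 and 1416 (ZT6), 1168 and 1662 (ZT10), 1484 and 1383 (ZT14), 1286 and 1175 (ZT18), and 968 and 846 (ZT22). Mutants had 825 and 979 (ZT2), 1211 and 1329 (ZT6), 1089 and 1075 (ZT10), 2050 and 1779 (ZT14), 1362 and 1424 (ZT18), and 1135 and 939 (ZT22). Reads were low at ZT22 and ZT2 in both genotypes. In mutants the mean at ZT10, 1082 reads, was near that at ZT22, 1037 reads, and the highest was 1914.5 reads at ZT14. In the cosine fitted to both genotypes together, which was chosen after seeing the data, Mxd4 had an adjusted p of 0.0136 and a peak at ZT12.6 (edgeR), with adjusted values of 0.000341 to 0.0184 over 5 alternatives. It was the 1 gene called among the 75, beside 0.503% of all genes, and the fitted peak of Ccnd1 was at ZT1.74. The Mxd4 promoter entry of RefSeq held 1 E-box.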

How the data were processed

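RNA was sequenced from CD31-sorted brain endothelial cells of 24 mice, 1 library each. Per the labels and the study's methods, libraries were strand-specific, and the authors aligned reads to GRCm38 with STAR 2.5.3a and Ensembl gene models, merged lanes with SAMtools 1.3.1 and normalized and counted with PORT. They deposited whole-number normalized read counts per gene. Because the totals were made alike, the original depth is not known from them, and counting error covers the normalized reads only.

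Samples were grouped by the labels. Genes with at least 5 reads in 6 control or 6 mutant libraries were tested, 15493 of 53465. Level differences used edgeR 4.0.16 in R 4.3.3 (TMM, quasi-likelihood, time point as a factor), and rhythm differences the interaction of genotype with a 24-h cosine and sine. Rhythm in each genotype used meta2d, rewritten in R. P-values were adjusted by Benjamini-Hochberg over all genes tested. DESeq2 1.42.0 was an alternative. The steps were tested on simulated data. The common biological coefficient of variation was 42.4%.

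The members and gene lists were chosen with earlier results of these data known. Named genes were the 7 members, the 5 genes most correlated with Cdc25b and with Wee1, the core clock genes at either end of that ranking, and in each other list those called or else the 3 smallest p and the 2 highest levels. Others named were chosen after their values were seen. Reads per kilobase used the merged exons of a GENCODE annotation of GRCm38, which also gave coordinates. Tested alternatives were other normalizations, filters and tests, terms for the i5 index, replicate number, other cell types and cell isolation, the ZT6 and ZT18 libraries alone or left out, and each mouse left out. Figures were drawn with matplotlib 3.10.9 in Python 3.11.15.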

Additional observations from a re-analysis of the deposited data

How the results depend on the processing

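Of 930 values recomputed for 41 results, 918 were labelled the same. For a test that meant the same side of the threshold, and a turn in direction counted only where the main result had passed it. For a count it meant the same count, and for an amplitude a move smaller than the SE of the fit. Level differences that had not passed could thus turn direction under that label, as those of Cdc25a, Ccnd2, Cdk4 and Mxd4 did. The count of other cell cycle genes with a changed level, 1 (Cdkn1a), became 0 with the i5 index as a term (log2 fold change 0.90), in the ZT6 and ZT18 libraries alone (0.68), where fewer mice were tested, and with the isolation response as a term (0.81). The cause was not tested. Leaving out single mice moved the relative amplitude of Cdc25b between 63.5% and 76.2% in controls and between 11.2% and 39.7% in mutants. The log2 fold change of Cdc25b lay between -1.45 and -0.97 in 33 alternatives, with adjusted p from 0.0524 to 0.763. The value of 0.0524 came from a filter of 1 read in any library. With single mice left out the adjusted p of Cdc25b ran from 0.136 to 0.351 (edgeR). A filter of 10 reads in every library dropped Cdc25b, so that alternative gave no value for it. For Wee1 the range was -1.06 to -0.088, with an unadjusted p under 0.05 in 31 of 34; it was 0.0611 with the i5 index and 0.0825 with the isolation response as a term.

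Same-numbered mice did not deviate together (correlations of -0.0082 to 0.016, 0 of 6 time points over 0.1), so the numbers do not pair samples. With the replicate number as a block, the log2 fold changes were -1.23 for Cdc25b (adjusted p = 0.179), -0.72 for Wee1 (adjusted p = 0.536) and 0.99 for Cdkn1a (adjusted p = 0.00458, edgeR), and no other call changed under the block.

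With 2 mice per group and 4 to 113 reads of Cdc25b per library, values at single time points rest on few reads.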

Other observations

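Other genes that p53 regulates or that regulate p53 were looked at beside Cdkn1a, after its values were seen. Mdm2 had a log2 fold change of 0.096, Ccng1 0.051, Gadd45a 0.10 and Trp53 0.26 in mutants against controls, with adjusted p of 0.935, 0.974, 0.972 and 0.833 (edgeR's quasi-likelihood test). Cdkn1b, which encodes p27, and Cdkn1c, which encodes p57, had 108.8 and 216.2 reads per kilobase in controls and log2 fold changes of 0.090 and -0.11. Cdkn1b had an unadjusted p of 0.000997 and an adjusted p of 0.147 in the cosine fitted to both genotypes, a test chosen after seeing the data. Mxi1, like Mxd4 a partner of MAX, had a meta2d q of 0.594 in controls and a mean of 511.9 reads.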
